A study of Mus musculus with 4 samples.

Results

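The genes described here are 10 genes of the MHC class I pathway: the heavy chains H2-K1 and H2-D1, their light chain B2m, the peptide transporter and loading genes Tap1, Tap2 and Tapbp, the immunoproteasome subunits Psmb8, Psmb9 and Psmb10, and the transactivator Nlrc5. They were chosen by symbol among the 24527 genes of the table of read counts, and all 10 were found. The table holds 4 libraries, 1 per condition, all of the C57BL/6-derived mouse melanoma line B16F10, labelled wild type. The 2D monoculture was a monolayer of B16F10 cells alone, and the 2D co-culture and the spheroid were grown with NIH/3T3 mouse fibroblasts, the spheroid in hanging drops. For these cultures the study used B16F10 cells that carry a green fluorescent protein and sorted the green, living cells. The tumor came from B16F10 cells injected under the skin of 1-year-old female C57BL/6 mice, which have their own immune, vessel and stromal cells. According to the labels the tumor library was made from snap-frozen tissue, whereas the methods describe cells sorted from tumors. Each condition was sequenced once, so no difference can be set against replicate error and no test was possible. Whether a library pools several isolations is not stated in the labels. All intervals are 95% intervals that cover counting error only.

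MHC class I molecules carry short peptides of a cell's own proteins to the cell surface, where CD8 T cells inspect them. Peptides are cut by the proteasome, pumped into the endoplasmic reticulum by the Tap1-Tap2 transporter and loaded, with the help of tapasin (Tapbp), onto a heavy chain paired with beta-2 microglobulin (B2m). Interferon-gamma raises most genes of this pathway, replaces the 3 catalytic subunits Psmb5, Psmb6 and Psmb7 of the constitutive proteasome by Psmb8, Psmb9 and Psmb10, and induces Nlrc5, which acts at class I promoters. B16 melanoma lines are known for low surface MHC class I that interferon-gamma can raise.

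The promoters of the heavy chains and of B2m are shown because Nlrc5 is known to act through a module of boxes at a fixed spacing, and both parts of one such arrangement could be read in them. Sequences and positions are those of RefSeq on build GRCm38.p6, and 8 of the 10 genes had a promoter window, which runs from 250 bases before to 50 bases after a start site. Tap2 and Nlrc5 had none. The stretches printed end at the base before a start site, and capitals mark TGACG and ATTGG when they are 20 bases apart and, in B2m, the GAAA repeat with 2 bases between its copies that is known as an interferon response motif.
H2-K1, chr17:34000334-34000443, minus strand: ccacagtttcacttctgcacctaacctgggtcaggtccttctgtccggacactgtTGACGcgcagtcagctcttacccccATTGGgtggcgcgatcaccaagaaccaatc
H2-D1, chr17:35262954-35263093, plus strand: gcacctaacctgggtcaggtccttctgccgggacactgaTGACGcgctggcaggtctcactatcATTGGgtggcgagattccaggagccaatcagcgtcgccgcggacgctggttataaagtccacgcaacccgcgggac
B2m, chr2:122147527-122147686, plus strand: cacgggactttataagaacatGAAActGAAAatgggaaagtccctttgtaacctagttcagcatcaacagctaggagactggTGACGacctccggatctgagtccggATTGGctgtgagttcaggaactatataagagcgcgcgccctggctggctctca

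The arrangement TGACGNNNNNNNNNNNNNNNNNNNNATTGG, searched on both strands after these sequences had been read, was found in 3 of the 8 genes (H2-K1, H2-D1 and B2m; H2-K1 has 2 windows, both with it) and in 31 of all 32851 promoter windows (0.0944%). Its end letters overlap with the separate searches for TGACG, found in 5 of the 8 genes and 20.8% of all windows, and for CCAAT, the complement of ATTGG, found in 6 of the 8 genes and 37.4% of all windows. In Psmb9 and Tap1 the matches to each of these motifs are the same bases, in the stretch between both genes. These counts of genes are therefore not counts of separate sites. The GAAA repeat was found in B2m alone of the 8 and in 3.44% of all windows. TTCNNNGAA was found in Psmb8 alone (8.3% of all windows) and a kappaB-type motif, GGG and TTCC with 3 bases between them, in B2m alone (5.56%). A match is a run of letters and not a measured binding site. The 31 windows include those of H2-K1, H2-D1 and B2m. As the arrangement was searched after it had been read in these genes, its presence in them was fixed in advance.

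Of the 10 genes, 7 lie on chromosome 17 within the MHC, in the order Tapbp (17:33919478-33929290), H2-K1 (17:33996012-34000619), Psmb9 (17:34182030-34187330), Tap1 (17:34187556-34197225), Psmb8 (17:34198195-34201454), Tap2 (17:34204479-34216321) and H2-D1 (17:35263094-35267497). B2m lies on chromosome 2 (2:122147687-122153082), and Nlrc5 (8:94434335-94527272) and Psmb10 (8:105935728-105938392) on chromosome 8. Psmb9 and Tap1 are transcribed away from each other, with 225 bases between their ends, so that both start sites border the same stretch. It is shown on the strand of Psmb9, chr17:34187331-34187555 (minus strand), because the levels of the pair differ widely below, and capitals mark TGACG and CCAAT on either strand.
Psmb9 to Tap1: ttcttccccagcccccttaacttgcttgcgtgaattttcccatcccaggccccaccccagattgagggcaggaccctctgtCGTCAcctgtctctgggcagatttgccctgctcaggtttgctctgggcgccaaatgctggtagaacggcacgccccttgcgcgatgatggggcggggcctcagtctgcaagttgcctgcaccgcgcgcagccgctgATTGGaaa

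The libraries held between 118896900 and 150028663 reads on genes. Levels are given as CPM (counts per 1000000 reads of the library), scaled with edgeR's TMM factors (0.908 for the spheroid to 1.16 for the tumor), and 3 reads came to between 0.0185 and 0.0262 CPM. The 8 melanocyte markers summed to 15984 CPM in the 2D monoculture, 14307 in the 2D co-culture, 10584 in the spheroid and 18873 in the tumor. All 8 were detected in every library, at 23.02 CPM or more. Against the 2D monoculture, 3 of the 8 were more than 2-fold lower in the spheroid (Mitf 5.91-fold, Mlana 3.89-fold and Tyrp1 2.51-fold) and 1 in the tumor (Sox10, 3.52-fold), and 0 were higher. In bulk RNA, fewer cells of a type and less RNA per cell cannot be told apart.

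The tumor library had the highest level of 8 of the 10 genes and the spheroid that of Tapbp, while Tap2 was about as high in both. The 2 heavy chains, which present the peptides, had similar levels in the 2D cultures and parted in the spheroid and the tumor. H2-K1 had 44.1 CPM in the 2D monoculture, 34.6 in the 2D co-culture, 191 in the spheroid and 550.4 in the tumor. H2-D1 had 37.6, 33.7, 58.0 and 145 CPM in the same order. H2-K1 was 4.33-fold (interval to 4.45) above the 2D monoculture in the spheroid and 12.5-fold in the tumor, whereas H2-D1 was 1.54-fold and 3.86-fold above it. Per length of transcript, there were 1.52 reads of H2-K1 for each of H2-D1 in the 2D monoculture (interval 1.47 to 1.58), 1.33 in the 2D co-culture, 4.27 in the spheroid (4.16 to 4.38) and 4.92 in the tumor (4.85 to 4.99). The balance between both heavy chains in the spheroid was thus nearer to that in the tumor than to that in the 2D cultures. H2-D1 shares reads with related genes only in part: 1.54% of the 150-base windows of its GENCODE transcripts occur in another gene, most often in H2-Q1, and none of those of H2-K1 do. With 75-base windows the shares were 5.76% for H2-D1 and 1.12% for H2-K1, the latter most often with H2-D1.

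B2m, the light chain of all class I molecules, had 274 CPM in the 2D monoculture, 351 in the 2D co-culture, 423 in the spheroid and 1727 in the tumor. The cultures lay within a range of 1.55-fold, and the tumor was 6.31-fold above the 2D monoculture (interval up to 6.38). Per length, B2m had 11.7 reads for each read of H2-K1 in the 2D monoculture, 19.1 in the 2D co-culture, 4.17 in the spheroid and 5.91 in the tumor. By these reads the excess of the light chain was lowest in the spheroid and highest in the 2D co-culture. B2m and H2-K1 differ in GC content, 41.2% and 56.3%. Relative to genes of like GC content, B2m was at a log2 ratio of -0.89 between spheroid and tumor and H2-K1 at -2.75. By that measure, chosen after the data were seen, the excess was lower in the tumor than in the spheroid.

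**Figure D1:**
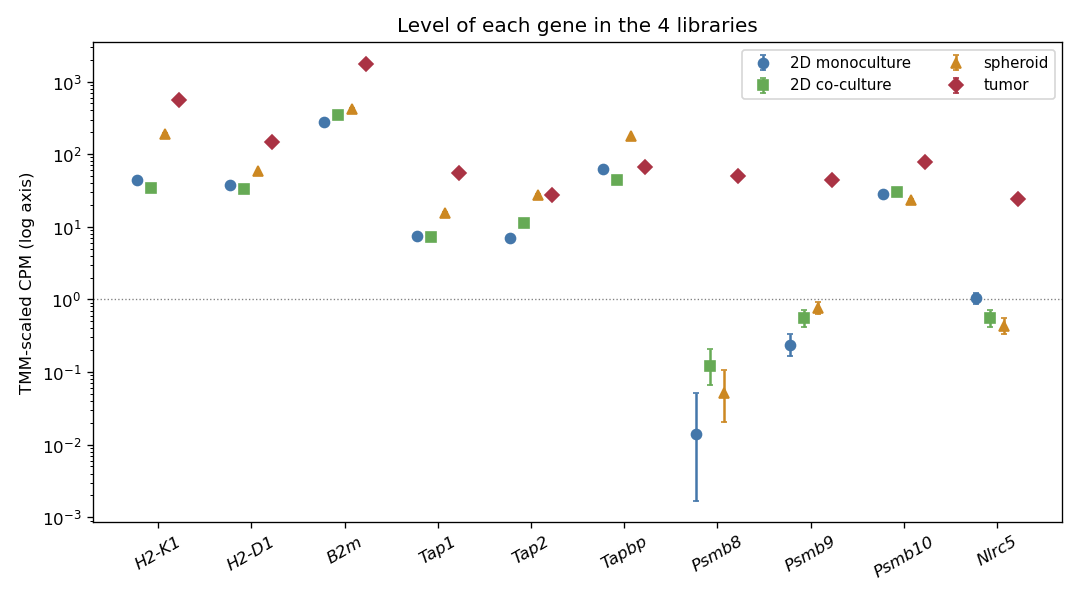
Level of each of the 10 genes (x axis) in TMM-scaled CPM on a log axis, 1 point per library, with bars for the 95% counting interval and a dotted line at 1 CPM. Psmb8 and Psmb9 lie under 1 CPM in the 3 cultures and at 50.2 and 43.4 CPM in the tumor, whereas Tapbp is highest in the spheroid.

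The genes of peptide transport and loading did not move as a group. Tap1, one chain of the transporter, had 7.37 CPM in the 2D monoculture, 7.27 in the 2D co-culture, 15.3 in the spheroid and 55.5 in the tumor. Tap2, the other chain, had 7.02, 11.1, 27.3 and 27.1 CPM in the same order. The tumor was 7.53-fold above the 2D monoculture for Tap1 and 3.86-fold for Tap2, and the spheroid was 2.08-fold above it for Tap1 (interval up to 2.24) and 3.89-fold for Tap2 (interval up to 4.18). Tap2 was the one member for which spheroid and tumor could not be told apart by counting error, with a log2 ratio of 0.01 (interval -0.05 to 0.08). This held with TMM scaling: with 1 CPM added, the ratio was -0.33 with total counts and -0.11 with upper quartiles, and -1.21 relative to genes of like GC content. Per length, Tap1 had 2.39 reads for each read of Tap2 in the tumor but 0.655 in the spheroid. Tapbp, which bridges the transporter and the empty class I molecule, had 61.6 CPM in the 2D monoculture, 43.9 in the 2D co-culture, 176 in the spheroid and 66.9 in the tumor. The spheroid was 2.86-fold above the 2D monoculture and 2.63-fold above the tumor, and the tumor differed little from the 2D monoculture (1.08-fold). Tapbp was the one member that was more than 2-fold higher in the spheroid than in the tumor. Relative to genes of like GC content, however, its log2 ratio between spheroid and tumor was 0.16, no longer past 2-fold. Between tumor and 2D monoculture it was 0.78 by that measure.

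The immunoproteasome genes gave the widest range. Psmb8, which carries the chymotrypsin-like site, had 2 reads in the 2D monoculture, 14 in the 2D co-culture, 7 in the spheroid and 8148 in the tumor. These came to 0.0140 CPM (interval 0.00170 to 0.0507), 0.122 CPM (0.0669 to 0.205), 0.0514 CPM (0.0207 to 0.106) and 50.2 CPM. Between tumor and 2D monoculture, its log2 ratio was 11.80, with an interval of 9.95 to 14.85 that is wide because it rests on 2 reads. Psmb9 had 34 reads in the 2D monoculture, 63 in the 2D co-culture, 104 in the spheroid and 7048 in the tumor, or 0.239, 0.550, 0.764 and 43.4 CPM. It was 182-fold above the 2D monoculture in the tumor, and its level in the spheroid was 3.20-fold above it but stayed under 1 CPM. Psmb10 was expressed in all libraries, with 27.9 CPM in the 2D monoculture, 29.9 in the 2D co-culture, 23.2 in the spheroid and 77.6 in the tumor. It was 2.78-fold above the 2D monoculture in the tumor and was the one immunoproteasome gene that was lower in the spheroid than in either 2D culture.

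Nlrc5, the class I transactivator, had 147 reads in the 2D monoculture, 63 in the 2D co-culture, 59 in the spheroid and 3931 in the tumor. These came to 1.03 CPM (interval 0.872 to 1.21), 0.550 CPM (0.423 to 0.704), 0.433 CPM (0.330 to 0.559) and 24.2 CPM. The spheroid, with the highest culture level of H2-K1, was 2.38-fold lower in Nlrc5 than the 2D monoculture and could not be told apart from the 2D co-culture by counting error (log2 ratio -0.34, interval -0.88 to 0.19). In the tumor, Nlrc5 was 23.5-fold above the 2D monoculture.

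Psmb9 and Tap1, which border the same stretch of bases, parted by condition. Per length, Psmb9 had 1.71 reads for each read of Tap1 in the tumor, against 0.0707 in the 2D monoculture. The spheroid had 0.109 and the 2D co-culture 0.165 by this measure. Psmb8, with 7 reads in the spheroid library, lies between Tap1 and Tap2, 969 bases from the one and 3024 from the other.

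Between tumor and 2D monoculture, 9 of the 10 genes were more than 2-fold higher and 0 were lower, on the scale of log2 ratios with 1 CPM added to each value that is used for all counts. Among the 12728 genes averaging 1 CPM or more, 14.8% were higher and 18.2% lower by this measure. The exception was Tapbp, with a log2 ratio of 0.12. The median of the 10 genes was 2.70, beside -0.14 over all genes, and their ratios ran from 0.12 to 5.66. All 10 genes passed the filter on low values, Psmb8, Psmb9 and Nlrc5 only through the tumor library, where they were high, so that for these 3 the direction was set by the filter.

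Markers of host cells moved in the same direction. The 5 pan-leukocyte genes summed to 260.4 CPM in the tumor and to between 1.14 and 3.00 CPM in the cultures, and all 5 were more than 2-fold higher than in the 2D monoculture, with Ptprc at 49.5 CPM against 0.0211 CPM. The 10 myeloid genes summed to 2099 CPM in the tumor and to at most 30.5 CPM in a culture (10 of 10 higher), the 6 endothelial genes to 255 CPM and at most 0.454 CPM (6 of 6 higher), and the 4 class II genes to 553 CPM and at most 34.9 CPM (4 of 4 higher). The 8 T and NK cell genes in the table were low in the tumor too, with a sum of 9.73 CPM, and 5 of the 8 were more than 2-fold higher. Of the 8 fibroblast genes 7 were higher, with a sum of 2718 CPM against 17.6 CPM, as were 5 of 5 skeletal muscle genes, with 4599 CPM against 3.28 CPM. The part of these cells in the tumor's class I levels was not tested, and with bulk RNA from 1 library it cannot be told apart from a difference in the melanoma cells.

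**Figure D2:**
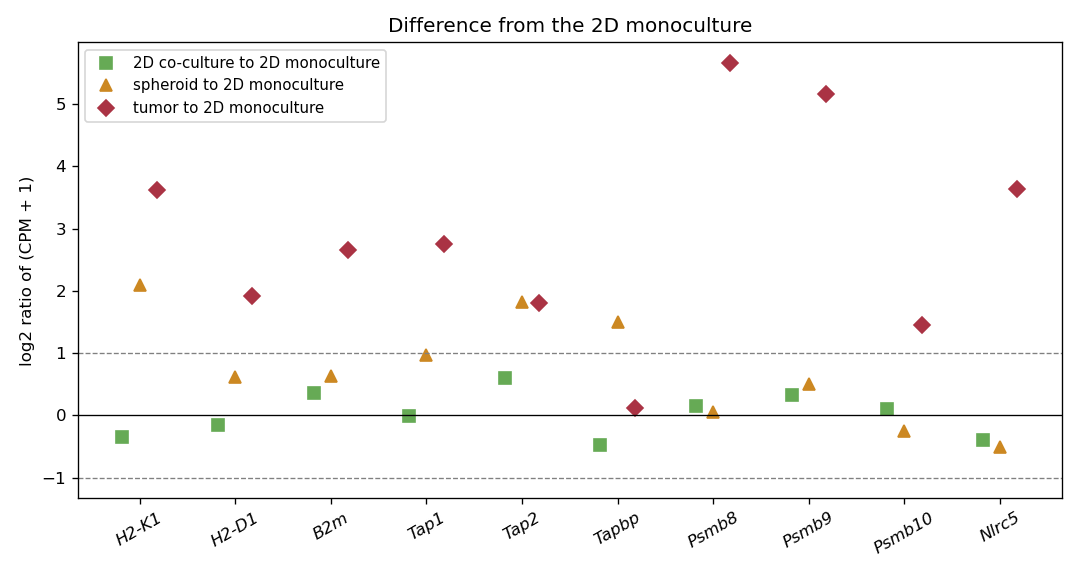
Log2 ratio of (CPM + 1) to the 2D monoculture for the 2D co-culture, the spheroid and the tumor, by gene, with dashed lines at 2-fold. The tumor lies above the upper line for all genes but Tapbp, the spheroid for H2-K1, Tap2 and Tapbp, and the 2D co-culture for none.

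Between spheroid and 2D monoculture, 3 of the 10 genes, H2-K1, Tap2 and Tapbp, were more than 2-fold higher and 0 were lower, where 11.2% of all genes were higher and 17.9% lower. The median was 0.62, beside 0.05 over all genes, and 8 of the 10 ratios lay above 0. Tap1 lay just inside the threshold at a log2 ratio of 0.97, and Psmb8, Psmb9 and Nlrc5 were at or under 1.03 CPM in both libraries, where the added 1 CPM keeps ratios near 0. Genes of high GC content were generally higher in the spheroid: of 10 classes of genes by GC content, the one that holds H2-K1, Tap1, Tap2, Tapbp and Psmb10 had a median log2 ratio of 0.58, and that of B2m, of low GC content, -0.48. Relative to their classes, in a correction chosen after the data were seen, H2-K1 was at 1.51, Tap2 at 1.24, B2m at 1.11 and Tapbp at 0.92. Tap1 was at 0.39, H2-D1 at 0.25 and Psmb9 at 0.15, and Psmb8 at -0.31, Nlrc5 at -0.77 and Psmb10 at -0.84. The median of the 10 genes fell to 0.32 by this measure. H2-K1, Tap2 and B2m were then past 2-fold, and Tapbp was not. Of the 8 fibroblast genes 3 were more than 2-fold higher, with a sum of 36.5 CPM against 17.6 CPM, and their part in these levels was not tested. The 5 pan-leukocyte genes summed to 3.00 CPM in the spheroid against 1.14 CPM in the 2D monoculture. With 1 CPM added, 0 of the 5 were more than 2-fold higher. Coro1a was the highest of them, at 2.00 against 0.779 CPM, and Ptprc was at 0.0734 against 0.0211 CPM.

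The region of chromosome 17 from Tapbp to H2-D1 (17:33919478-35267497) held 63 other genes averaging 1 CPM or more. Of these, 16 were more than 2-fold higher in the spheroid than in the 2D monoculture (25.4%) and 0 lower, with a median log2 ratio of 0.65 and a median GC content of 57.4%, against 50.3% over all genes. Between tumor and 2D monoculture, 16 of the 63 were higher and 17 lower, with a median of -0.53. In the spheroid the other genes of the region thus had a median close to the 0.62 of the 10 genes, and in the tumor one of opposite sign. The GC class that holds Tap1, at 57.3% GC, had medians of 0.58 in the spheroid and -0.67 in the tumor. These lay near the medians of the region, so nothing particular to the region is read from it. The part of GC content was not tested.

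The 2D co-culture differed least from the 2D monoculture: 0 of the 10 genes passed 2-fold in either direction, where 3.79% of all genes were higher and 9.51% lower. The median was 0.04, beside 0.01 over all genes, and 5 ratios lay above 0 and 5 below. H2-K1, H2-D1 and Tapbp were lower than in the 2D monoculture (1.28-fold, 1.12-fold and 1.40-fold) and Tap2 was 1.58-fold higher. Fibroblast genes summed to 679 CPM in this library, with 5 of 8 more than 2-fold higher and Col1a2 at 514 CPM against 2.97 CPM. Their part in the class I levels was not tested. These 3 comparisons share the 2D monoculture library.

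Set against the 2D co-culture, the spheroid was again more than 2-fold higher for H2-K1, Tap2 and Tapbp and lower for 0 of the 10, where 9.54% of all genes were higher and 8.46% lower. H2-K1 was 5.52-fold higher, Tapbp 4.01-fold and Tap2 2.46-fold, and the median over the 10 genes was 0.52, beside -0.01 over all genes. Relative to genes of like GC content 2 remained past 2-fold, H2-K1 at 2.02 and Tapbp at 1.57, and Tap2 was at 0.81. Tap1 was 2.11-fold higher with nothing added and lay just under 2-fold with 1 CPM added, at a log2 ratio of 0.98.

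Against the tumor, 8 of the 10 genes were more than 2-fold lower in the spheroid and 1, Tapbp, was higher, where 27.6% of all genes were lower and 26.8% higher. The median was -1.75, beside 0.08 over all genes. In the 2D co-culture, 9 were lower and 0 higher against the tumor, where 20.9% and 18.8% of all genes were, with a median of -2.53 beside 0.11. Psmb8, Psmb9 and Nlrc5 count among the 8 and the 9 and enter both medians. They passed the filter on low values only through the tumor library, so their direction was set by the filter here too. Relative to genes of like GC content, Tapbp in the spheroid was at 0.16 against the tumor and B2m at -0.89, both no longer past 2-fold, whereas Tap2 was at -1.21 and so past it. The 8 genes lower by that measure are thus not the same 8. As a percent of the tumor's CPM, the spheroid reached 34.7% for H2-K1, 39.9% for H2-D1, 24.5% for B2m, 27.7% for Tap1 and 29.9% for Psmb10. The corresponding values of the 2D co-culture were 6.28%, 23.2%, 20.4%, 13.1% and 38.5%.

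**Figure D3:**
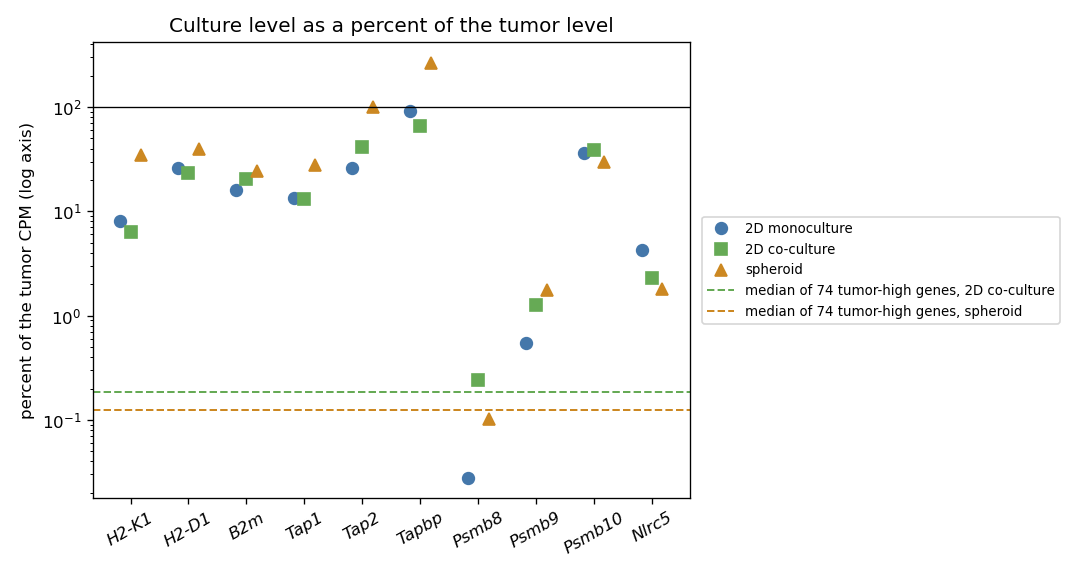
CPM of each gene in the cultures as a percent of its CPM in the tumor (log axis), with a line at 100 percent and dashed lines at the median percent of 74 other genes that are high in the tumor and near 0 in the 2D monoculture. Psmb8 lies near the dashed lines in the 2D co-culture and the spheroid and below them in the 2D monoculture, and the other 9 genes lie above them.

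The lowest levels in the cultures can be set beside a low level of tumor-type genes in the same libraries. Outside the 10 genes, 74 had 5000 or more tumor reads and a 2D monoculture CPM under 0.03% of that in the tumor. As a percent of their tumor level, these genes had a median of 0.184% (quartiles 0.150% and 0.250%) for the 2D co-culture and of 0.123% (0.105% and 0.161%) for the spheroid. Psmb8 was at 0.244% in the former and 0.102% in the latter, close to these medians. Its 14 and 7 reads are not read as expression, as low expression cannot be told apart from this low level. Psmb9 was at 1.27% and 1.76% and Nlrc5 at 2.27% and 1.79%, above the upper quartiles. In the 2D monoculture, however, Psmb9 was at 0.550% and Nlrc5 at 4.26%, past the 0.03% limit of the 74 genes. The comparison is therefore not one of like genes for Psmb9 and Nlrc5. The highest of the 74 genes was at 95.3% in the 2D co-culture and at 0.461% in the spheroid.

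Within a library, the reads of an immunoproteasome subunit can be set against those of the constitutive subunit it replaces, a ratio that no scaling factor touches. For 100 reads of Psmb5 there were 0.00918 of Psmb8 in the 2D monoculture (interval 0.00111 to 0.0332), 0.0673 in the 2D co-culture, 0.0234 in the spheroid and 36.2 in the tumor (35.3 to 37.1). For 100 reads of Psmb6 there were 0.0784 of Psmb9 in the 2D monoculture, 0.150 in the 2D co-culture, 0.154 in the spheroid and 15.7 in the tumor. Psmb10 stood apart, with 8.82 reads for 100 of Psmb7 in the 2D monoculture (8.54 to 9.12), 6.73 in the 2D co-culture, 3.84 in the spheroid (3.70 to 3.98) and 21.4 in the tumor. The spheroid thus had the lowest share of Psmb10 among the 4 libraries. The constitutive genes themselves were highest in the spheroid, Psmb5 with 219.96 CPM against 153 CPM in the 2D monoculture, Psmb6 with 496 against 304 CPM and Psmb7 with 604 against 316 CPM, and 0 of these 3 passed 2-fold in the spheroid or the tumor.

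**Figure D4:**
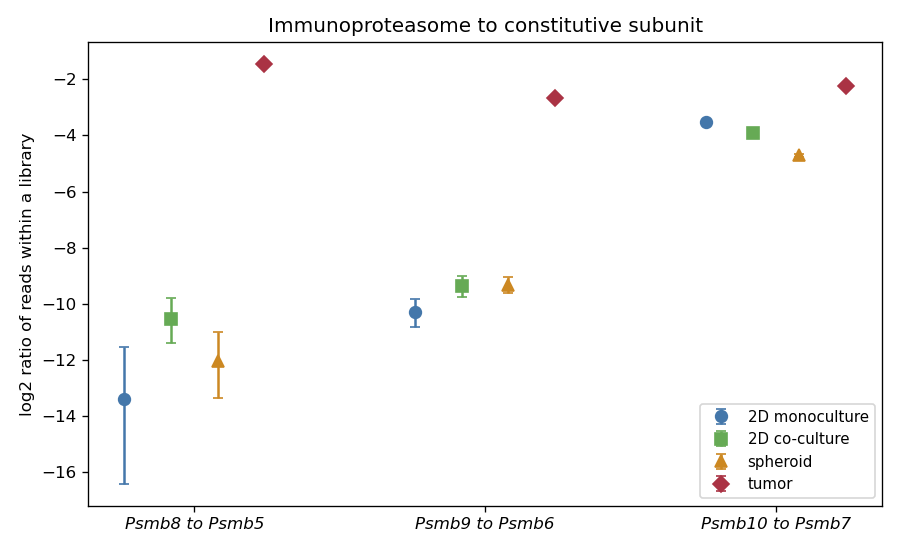
Log2 ratio of reads of each immunoproteasome subunit to its constitutive counterpart within each library, with bars for the 95% counting interval. For Psmb8 and Psmb9 the 3 cultures lie far below the tumor, and for Psmb10 the spheroid is lowest.

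Genes of the rest of the pathway were counted in the same way, against the 2D monoculture and over every listed gene, whether or not it averaged 1 CPM. The counts below are small, and nothing particular to a list is read from them.

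The proteasome activator PA28, which opens the core for peptides, was higher in spheroid and tumor alike. Psme1, its alpha subunit, had 40.5 CPM in the 2D monoculture, 51.5 in the 2D co-culture, 101 in the spheroid and 106 in the tumor. Psme2, its beta subunit, had 6.25, 8.19, 15.4 and 29.6 CPM in the same order. Psme3, the nuclear activator, was 2.26-fold lower in the tumor than in the 2D monoculture, and Pomp, which assembles the proteasome, was within 2-fold in both. Of these 4 genes, 2 were higher in the spheroid and 0 lower (11.2% and 17.9% over all genes), and 2 were higher and 1 lower in the tumor (14.8% and 18.2%).

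Of 7 genes of loading and trimming, 4 were more than 2-fold lower in the spheroid than in the 2D monoculture, where 17.9% of all genes were, and 0 were higher, where 11.2% were. Erap1, which trims peptides in the endoplasmic reticulum, had 6.91 CPM in the 2D monoculture, 3.74 in the 2D co-culture, 1.73 in the spheroid and 63.4 in the tumor, so that spheroid and tumor lay on opposite sides. Lnpep, another aminopeptidase, was 3.86-fold lower in the spheroid. In the tumor, 1 of the 7 was higher (Erap1, 9.18-fold) and 1 lower (Calr, a chaperone of class I, 2.31-fold).

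Of 17 other class I and B2m-binding heavy chains, of which 11 averaged 1 CPM or more, 9 were more than 2-fold higher in the tumor than in the 2D monoculture (14.8% over all genes) and 0 lower. In the spheroid 2 were higher and 1 was lower, where 11.2% and 17.9% over all genes were. These shares leave out genes averaging under 1 CPM, which the 17 include, so the sets are not alike. H2-T23, which encodes the nonclassical molecule Qa-1, had 2.87 CPM in the 2D monoculture, 1.69 in the 2D co-culture, 5.58 in the spheroid and 53.3 in the tumor. H2-Q4, a Qa-2 type gene, had 12.3, 19.96, 38.8 and 55.1 CPM in the same order, and Fcgrt, the neonatal Fc receptor, 31.2, 27.0, 81.0 and 97.1 CPM. H2-Q6 and H2-Q7, whose transcripts share 5.99% and 6.18% of their 150-base windows with another gene, are listed with 0 reads in every library.

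Upstream, the interferon ligands were at or near 0. Ifng was at 0.388 CPM in the tumor, at 0.0175 in the 2D co-culture and at 0 reads in the other cultures, and Ifnb1 reached 0.0616 CPM in the tumor. Among 7 receptors and kinases, Ifngr1 was 3.22-fold higher in the tumor than in the 2D monoculture and Tyk2 2.37-fold lower. In the spheroid, 0 were higher and 2 lower, where 17.9% of all genes were lower. Jak1, the kinase shared by the interferon receptors, had 185 CPM in the 2D monoculture, 45.8 in the 2D co-culture, 34.7 in the spheroid and 130 in the tumor, and Jak2 had 24.1, 10.8, 9.36 and 46.5 CPM.

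Of 16 transcription factors that act on the pathway, 6 were higher and 1 lower in the tumor (14.8% and 18.2% over all genes). In the spheroid 1 was higher and 1 lower, which is no larger a share than the 11.2% and 17.9% over all genes. Irf1, an interferon-induced activator of class I genes, had 8.47 CPM in the 2D monoculture, 13.6 in the 2D co-culture, 10.9 in the spheroid and 74.3 in the tumor. Irf9, a subunit of the factor that answers type I interferon, had 9.22, 7.14, 9.80 and 40.4 CPM in the same order. Rfxank, a subunit of the RFX complex at class I and class II promoters, was 2.28-fold higher in the spheroid than in the 2D monoculture, with 27.0 against 11.9 CPM. Irf8 and Ciita were at 24.3 and 6.75 CPM in the tumor and at most 0.0808 CPM in a culture.

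Of the 4 inhibitors of the pathway, 3 were higher in the tumor (14.8% over all genes) and 1 in the spheroid (11.2%). Socs3, which blocks Jak kinases, had 5.98 CPM in the 2D monoculture, 23.3 in the 2D co-culture, 39.5 in the spheroid and 44.8 in the tumor. Usp18, which restrains the type I interferon receptor, had 1.32, 0.594, 0.778 and 17.2 CPM.

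Of 20 interferon-stimulated genes, 17 were more than 2-fold higher in the tumor than in the 2D monoculture (14.8% over all genes) and 0 lower, with a median of 3.38. In the spheroid, 2 were higher and 5 lower, near the 11.2% and 17.9% over all genes, with a median of -0.26. In the 2D co-culture 1 was higher and 9 lower (3.79% and 9.51% over all genes), with a median of -0.68. Gbp2, a guanylate-binding protein, had 5.005 CPM in the 2D monoculture, 1.53 in the 2D co-culture, 0.602 in the spheroid and 112 in the tumor. Iigp1, an immunity-related GTPase, was at 147 CPM in the tumor and at most 0.341 CPM in a culture, and Cxcl9, a chemokine for T cells, at 66.2 CPM and at most 0.105 CPM. The 2 that were higher in the spheroid were Cxcl10, a chemokine for T cells, with 76.9 against 29.6 CPM in the 2D monoculture, and Isg15, a ubiquitin-like protein, with 30.2 against 14.3 CPM. As both counts in the spheroid were near the shares over all genes, nothing particular to interferon-stimulated genes is read from them.

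**Figure D5:**
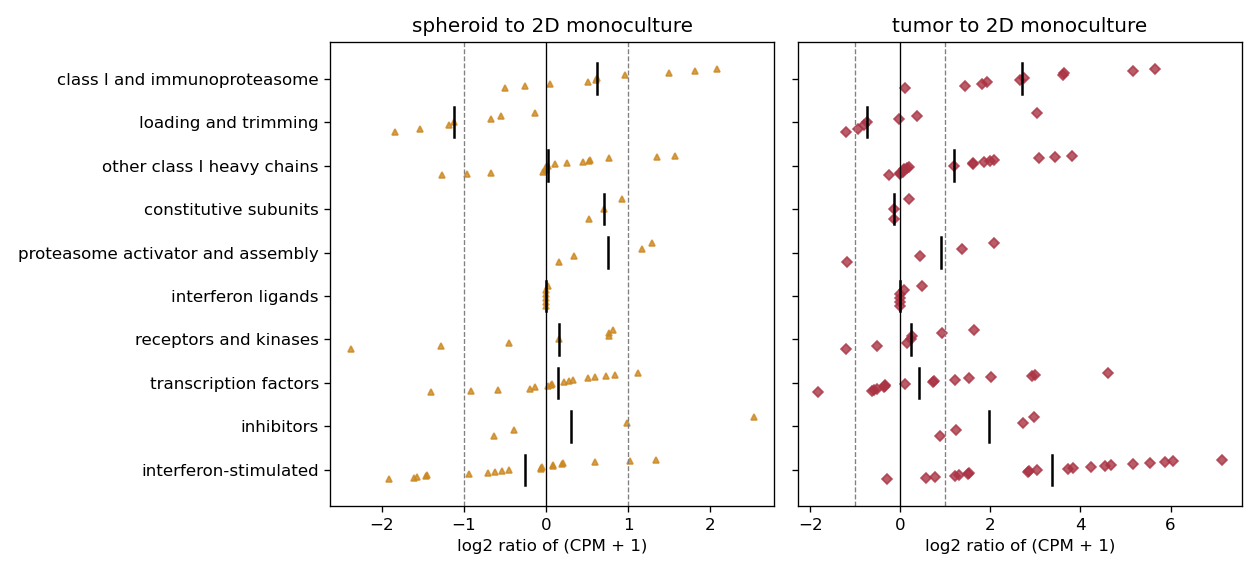
Log2 ratio of (CPM + 1) to the 2D monoculture for every gene of the 10 described and of the other lists (rows), 1 point per gene and a bar at each median, for the spheroid (left) and the tumor (right), with dashed lines at 2-fold. The interferon-stimulated genes have a median of 3.38 in the tumor and -0.26 in the spheroid, and the 2 panels have different x scales.

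Among 9579 other genes averaging 10 CPM or more, the 5 whose profile over the 4 libraries lay closest to the median profile of the 10 genes were Tsc22d3, Fxyd5, Eno3, Maf and Naaa, at distances of 0.261 to 0.382 on the log2 scale. Tsc22d3 had 9.10 CPM in the 2D monoculture, 10.6 in the 2D co-culture, 17.4 in the spheroid and 56.4 in the tumor. Of the 10 genes, Tap1 lay closest to that median (0.200) and Psmb8 farthest from it (2.82). Psmb8 and Psmb9 were each other's nearest member, at 0.692, as were Tap1 and B2m, at 0.517. With 4 libraries, such a likeness is a description only.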

How the data were processed

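The authors deposited raw read counts per refGene symbol, 1 column for each of 4 libraries made from oligo-dT enriched RNA and read as 150-base pairs. The submitters' processing notes name Trimmomatic, STAR, featureCounts and mm10; versions, strand setting and the treatment of multi-mapped reads are not stated in the sources used here, so reads of overlapping or antisense genes cannot be told apart. Each column was matched to its condition by its label. From the deposited counts, CPM were computed with TMM factors of edgeR 4.0.16 in R 4.3.3 (alternatives: DESeq2 1.42.0 size factors, total counts, upper quartiles), and all else in Python 3.11.15 with scipy 1.17.1. Intervals of CPM are exact Clopper-Pearson intervals, and those of ratios come from the exact binomial interval. Ratios of single genes have no pseudocount unless stated, and counts and medians use 1 CPM. GC content and length are those of the longest GENCODE M21 transcript with a RefSeq match, found for 97.3% of the genes tested. Counting more than 2-fold was also run on counts simulated from the 2D monoculture. These held counting error only, so the run cannot show how the count fares under biological variation or GC trends.

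The 10 genes and the lists were chosen with earlier results of these data known. Named are the 10 genes, the constitutive and activator subunits, and per list at most 4 genes with the largest difference of tumor and 2 of spheroid from the 2D monoculture. H2-Q6, H2-Q7, Ifng, Ifnb1, Cxcl10, Isg15 and the marker genes were named after their values were seen. NOISeq and GFold, which the study used, were not run. Protein sequences were not used here, so the planned comparison of protein identity was not made. 1 gene of the transcription factor list, which its counts include, is not reported here.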

Additional observations from a re-analysis of the deposited data

How the results depend on the processing

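No paired analysis was possible because no condition was sequenced more than once. Of 266 counts and medians under alternatives, 243 were within 1.5 times or 1.5-fold of the value reported. No scaling moved a count of members by over 1.5 times; total counts moved the median of all genes by -0.33 between spheroid and tumor and by 0.22 between tumor and 2D monoculture. Members past 2-fold between spheroid and 2D monoculture numbered 6 (5 higher and 1 lower) with 0.1 CPM added, 6 (6 higher) at 1.5-fold and 1 at 4-fold. Between 2D co-culture and 2D monoculture, 1 was higher at 1.5-fold, Tap2, and 1 with the interval past 2-fold, Psmb8. The latter rests on 14 against 2 reads. Between spheroid and 2D co-culture, 5 were higher at 1.5-fold and 1 at 4-fold, and between spheroid and tumor 4 were lower and 0 higher at 4-fold. Tap2 between spheroid and tumor was at -0.33 with total counts and -0.11 with upper quartiles. Correction by GC class left 2 higher between spheroid and 2D co-culture, left 0 higher between spheroid and tumor and moved the median there to -2.83 and between 2D co-culture and tumor to -3.13. The median between 2D co-culture and 2D monoculture reversed to -0.082 with GC classes and to -0.0067 with the tumor share taken off the cultures. Both of these alternatives were chosen after the data were seen, and the cause of each move was not tested. Depth limits Psmb8 in the cultures, with 2 to 14 reads.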

Other observations

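Cd74, the invariant chain of MHC class II, had 5.78 CPM in the 2D monoculture, 0.821 in the 2D co-culture, 34.4 in the spheroid and 154 in the tumor. H2-Aa, a class II chain, was at 194 CPM in the tumor and at most 0.306 CPM in a culture, so that in the spheroid Cd74 was 5.95-fold above the 2D monoculture at a level where the class II chain was near 0.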
